A study of Mus musculus with 21 samples.

Results

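The genes of fatty acid oxidation were followed as a list of 34 mouse genes, named by symbol with earlier results of these data known, among 53801 gene identifiers counted in every library. The list runs from uptake of fatty acids (Cd36, Fabp3, Slc27a1 and the carnitine transporter Slc22a5) through activation and the carnitine shuttle (Acsl1, Cpt1a, Cpt1b, Cpt2 and Crat) to the beta-oxidation enzymes of mitochondria and peroxisomes. It ends with electron transfer (Etfa, Etfb, Etfdh), thioesterases, control of malonyl-CoA and the uncoupling protein Ucp3. The series asked whether Fap, which encodes fibroblast activation protein, a membrane protease of activated fibroblasts, governs heart repair after myocardial infarction (MI). It holds RNA-seq of 15 pieces of mouse heart labelled border zone, the muscle beside an infarct, all at D7, and of 6 hydrogel cultures of mouse cardiac fibroblasts. The hearts are 3 wild-type sham, 4 wild-type MI, 4 wild-type MI+FAPI (called inhibitor hearts, since the title speaks of Fap inhibition) and 4 MI hearts of FapKO genotype (knockout hearts). The labels name no strain, age, compound, dose, start of treatment or knockout allele, nor whether the knockout was present from birth. Nothing in them ties a heart library to an animal of its own, so p-values measure only the spread between these libraries, which may be technical. The cultures were 3 of fibroblasts alone and 3 of fibroblasts with cardiac and lung endothelial cells, kept for 7 days in 5% GelMA, a gelatin-based gel.

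Fatty acids are the main fuel of the adult heart muscle cell. They enter through transporters, are bound by fatty acid binding protein, are coupled to coenzyme A, and cross into mitochondria as carnitine esters made by carnitine palmitoyltransferase 1. Inside, an acyl-CoA is shortened in a repeating cycle of dehydrogenation, hydration, a further dehydrogenation and thiolysis, and the electrons pass through electron transfer flavoprotein to the respiratory chain. Nuclear receptors of the PPAR and ERR families with the coactivator PGC-1 drive many of these genes, and injured or failing hearts are known to lower them.

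Heart libraries held 18474138 to 37287355 counts and culture libraries 4735337 to 15650221. The labelled knockout was checked on Fap itself, which had 51, 68, 64 and 46 counts in the knockout hearts, against 285 to 513 in MI hearts and 44 to 56 in sham hearts. On the CPM scale Fap was 1.79 to 2.36 in knockout and 9.40 to 13.2 in MI hearts, a log2 fold change of −2.36 (CPM, the counts of a gene relative to library size, scaled by edgeR's TMM method). The knockout level was lower than in MI hearts but not 0, and the labels do not name the deleted part of the gene. The raw counts of sham and knockout hearts are not on one scale. Library sizes after TMM were 14509618 to 16232286 in sham and 23293727 to 29355249 in knockout hearts. All 21 cardiomyocyte markers (Myh6, Tnnt2, Actn2 and others) were detected in each heart group, and their summed level ran from 13595 to 41184 CPM in MI hearts, 44571 to 81338 under inhibitor, 65666 to 78576 with the knockout and 109136 to 125180 in sham hearts. MI replicate 3 stood apart from the other MI hearts, whose sums were at most 20564 CPM. Mitochondrial transcripts took a mean of 17.0% of counts in sham, 5.60% in MI, 12.0% in inhibitor and 13.7% in knockout hearts. In bulk tissue, fewer cells of a type and less RNA per cell cannot be told apart.

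The 34 genes together took 1.80% ± 0.204 (SD) of counts in sham hearts, 0.398% ± 0.0936 in MI hearts, 0.898% ± 0.132 in inhibitor hearts and 1.35% ± 0.124 in knockout hearts. In sham hearts the highest levels per kilobase of exon belonged to Fabp3, the fatty acid binding protein of heart, at 7228 ± 1928 CPM per kb, and to the thioesterase Acot13 at 2824 ± 356. The isomerase Ech1 followed at 1611 ± 260 and the thiolase Acaa2 at 1494 ± 293 CPM per kb (n = 3). At the low end stood Cpt1a at 1.09 ± 0.178, Acad9 at 0.975 ± 0.117 and Cpt1b at 0.0330 ± 0.0298 CPM per kb (levels are over the union of annotated exons, which dilutes genes with many long alternative exons). Cpt1b had too few counts to test, 0 to 9 in each heart, and the other 33 genes were tested.

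After infarction 32 of the 33 genes fell and 1, Cpt1a, rose, by the quasi-likelihood F test of edgeR, adjusted over all genes by Benjamini and Hochberg, at 0.05 (written edgeR adjusted p). Fold changes in parentheses stand with their SE. Of all 17064 genes tested, 32% fell and 37.1% rose. The median log2 fold change of the 33 was −2.81, beside 0.14 over all genes. In every one of the 33 the 4 MI hearts did not overlap the 3 sham hearts, a count that was not made over all genes. MI means were 6.31% of the sham mean at the lowest (Acaa2) and 14.2% at the median. Inhibitor hearts stood above MI hearts in 27 of the 33 genes and below in 1, again Cpt1a, with a median of 1.12 (17.9% of all genes were higher and 11.9% lower). Knockout hearts stood above MI hearts in 32, with a median of 2.05 (25% of all genes were higher), and Cpt1a did not pass at −0.06. These comparisons share their MI hearts, as those with sham share the sham hearts. Without MI replicate 3 the counts were 32 lower and 1 higher, 27 higher and 1 lower, and 32 higher, with medians of −2.998, 1.30 and 2.22.

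The scale matters for the size of these values. Scaled by total counts alone, without TMM, the median of all genes moved from 0.14 to 1.23 in MI against sham, from −0.03 to −0.44 in inhibitor against MI and from −0.08 to −0.63 in knockout against MI hearts. Among called genes the higher ones went from 53.7% to 86.1%, from 60.1% to 14.6% and from 49.1% to 16.6%. On that scale 30 of the 33 fatty acid oxidation genes were lower and 2 higher after infarction (median −1.74), 26 were higher and 3 lower in inhibitor hearts (median 0.69) and 28 were higher and 1 lower in knockout hearts (median 1.52).

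**Figure D1:**
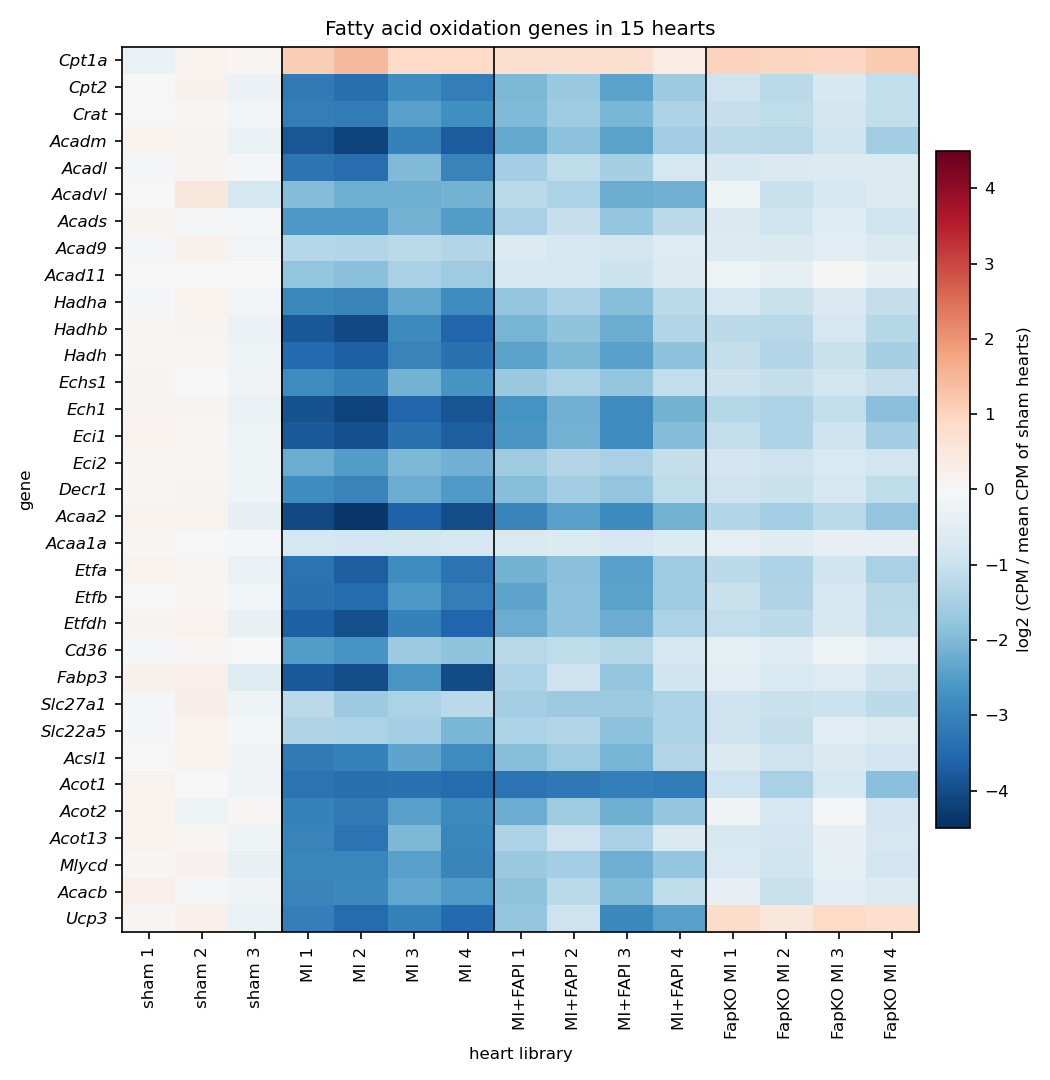
Level of 33 fatty acid oxidation genes (rows) in 15 hearts (columns), as log2 of CPM over the mean CPM of the 3 sham hearts (colour scale). MI hearts are blue in 32 rows, inhibitor hearts paler and knockout hearts palest for most genes, and Cpt1a is red in all 3 infarct groups, as Ucp3 is in knockout hearts.

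The cardiomyocyte markers moved in the same order as the fatty acid oxidation genes. All 21 fell in MI against sham hearts (median −2.31), and all 21 were higher in inhibitor (median 1.49) and in knockout hearts (median 1.85) than in MI hearts. The mean log2 (CPM + 0.5) of the 33 genes was 4.88 to 5.48 in MI hearts, 5.85 to 6.39 under inhibitor, 6.81 to 7.16 with the knockout and 7.52 to 7.83 in sham hearts, so no group overlapped another. The same mean of the 21 markers was 7.78 to 9.25 in MI hearts, 9.56 to 10.4 under inhibitor, 10.1 to 10.46 with the knockout and 10.8 to 10.9 in sham hearts, and there inhibitor and knockout hearts overlapped. The mean of the 21 markers on edgeR's own log2 CPM scale then served as a covariate. With it, 24 of the 33 genes were still lower in MI than in sham hearts (median −1.36). None was called between inhibitor and MI hearts (median 0.29), and 10 were higher in knockout than in MI hearts (median 0.84). Over all 17064 genes that fit called 2298, 38 and 357. No MI heart had a marker level within the range of another group, so that fit sets MI hearts beside the others at marker levels they did not share. Macrophage markers went the other way, 12 of 12 higher in MI than in sham, 8 of 12 lower in inhibitor and 12 of 12 lower in knockout than in MI hearts. Neutrophil markers were higher in MI than in sham hearts in 7 of 7 tested (median 3.43) and lower than in MI in 7 of 7 in both inhibitor (median −3.29) and knockout hearts (median −3.05), with sums of 110 to 854 CPM in MI hearts and 40.1 to 66.9 in the others. Adipocyte markers were higher in 7 of 10 and lower in 3 in MI hearts (median 2.91), 7 lower and 1 higher in inhibitor (median −3.17) and 4 lower and 3 higher in knockout against MI hearts (median −1.18), with sums of 1146 to 1799 CPM in MI hearts, 911 to 1177 under inhibitor, 2132 to 2947 with the knockout and 1664 to 1788 in sham hearts. The part of cell numbers in these results was not tested.

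**Figure D2:**
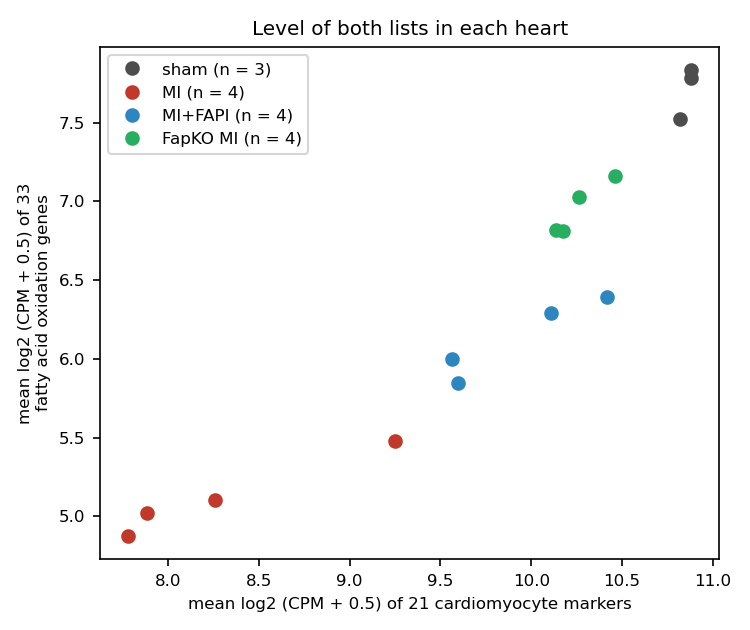
Mean log2 (CPM + 0.5) of 33 fatty acid oxidation genes (vertical axis) against that of 21 cardiomyocyte markers (horizontal axis), 1 point a heart, coloured by group. By group means both scales order the groups MI, inhibitor, knockout and sham, and the knockout hearts (6.81 to 7.16) lie above the inhibitor hearts (5.85 to 6.39) at marker levels that overlap.

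All 4 uptake and binding genes fell after infarction. Fabp3 (chr4:130308595-130315463, plus strand, GRCm38), 19.6% of whose exon bases are shared with genes on the opposite strand, stood at 6761, 6965 and 4120 CPM in the 3 sham hearts, 438, 373, 972 and 365 in the 4 MI hearts, 2290.1, 3101, 1779 and 3192 in inhibitor hearts and 4194, 3727, 4002 and 3025 in knockout hearts. MI replicate 3 was the highest MI heart, and all inhibitor and knockout hearts lay above it. Fabp3 fell in MI against sham (log2 fold change −3.47 ± 0.33, edgeR adjusted p = 1.41e-07) and had the largest rise of the list in inhibitor hearts (log2 fold change 2.27 ± 0.31, edgeR adjusted p = 1.41e-04). Cd36 (chr5:17781690-17888801, minus strand), the fatty acid translocase, was at 613, 661 and 617 CPM in sham, 109, 101, 201 and 179 in MI, 265, 284, 262 and 369.8 in inhibitor and 459, 420.5, 538 and 438 in knockout hearts, with no overlap between any pair of groups. It fell in MI hearts by 2.09 on the log2 scale and was higher than in MI by 1.00 in inhibitor and 1.65 in knockout hearts. Slc27a1 (FATP1, a transport protein with acyl-CoA synthetase activity) and Slc22a5 (OCTN2, which imports carnitine) fell by 1.36 and 1.56. Neither was called in inhibitor against MI hearts (−0.20 and 0.08; the sign of Slc22a5 turns to −0.35 with total-count scaling), and both were higher in knockout hearts (0.34 and 0.79). The Slc27a1 call was lost without MI replicate 2 (adjusted p = 0.0650), and with total-count scaling its value was −0.20.

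Activation and the carnitine shuttle held the gene that went the other way. Cpt1a, the liver-type carnitine palmitoyltransferase that other cells of the heart also express (chr19:3322334-3385733, plus strand), was at 6.78, 9.28 and 8.96 CPM in sham and 17.9, 22.7, 15.1 and 15.5 CPM in MI hearts. All MI hearts lay above all sham hearts (log2 fold change 1.09 ± 0.16, edgeR adjusted p = 1.38e-05). Inhibitor hearts had 14.1, 13.8, 13.7 and 10.6 CPM and knockout hearts 17.1, 16.2, 16.0 and 19.0. Inhibitor hearts were lower than MI hearts (log2 fold change −0.45 ± 0.14, edgeR adjusted p = 0.0213), a call lost without MI replicate 2 (adjusted p = 0.0873) or without inhibitor replicate 4 (adjusted p = 0.0803). Knockout hearts overlapped MI hearts and were not called (−0.06), but with total-count scaling they were lower (−0.62, edgeR adjusted p = 0.00742). Cpt1a was the single gene of the list above sham in both inhibitor and knockout hearts (0.64 and 1.04). Fibroblast and macrophage markers were also higher in MI than in sham hearts, 10 of 10 and 12 of 12, with summed levels of 15001 to 21641 against 3553 to 4111 CPM and 7901 to 11015 against 2226 to 2448 CPM. With the cardiomyocyte covariate Cpt1a was at 0.23 in MI against sham and was not called, and the part of these cell types in it was not tested.

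Cpt1b, the muscle-type enzyme and the usual partner for comparison with Cpt1a, could not be read from these counts. Its levels were 0, 0.196 and 0.138 CPM in sham, 0.0309, 0.0258, 0.0933 and 0 in MI, 0.138, 0.0365, 0.0598 and 0.144 in inhibitor and 0.172, 0.307, 0.295 and 0.195 in knockout hearts, which is near 0 for a gene of heart muscle. In the GENCODE annotation of GRCm38, Cpt1b lies at chr15:89416405-89425863 on the minus strand, and 81.4% of its exon bases are also exon of Gm44502, an overlapping locus on the same strand that has 0 counts in all 21 libraries. The labels do not say how reads on shared bases were counted, and the part of this overlap in the low counts was not tested. Acadvl, the very-long-chain dehydrogenase, shares 42.9% of its exon bases with Dvl2 on the opposite strand and stood at only 5.30, 7.58 and 3.10 CPM in sham hearts. Etfb shares 58.2% with 2 genes on its own strand, so the levels of Acadvl and Etfb are also uncertain.

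The other shuttle genes fell too. Acsl1, the long-chain acyl-CoA synthetase of heart, was at 179, 201 and 162 CPM in sham, 20.02, 22.2, 34.9 and 25.5 in MI, 47.9, 59.4, 42.2 and 73.0 in inhibitor and 115, 95.6, 116 and 99.4 in knockout hearts. The 4 groups did not overlap. Cpt2, which returns acylcarnitine to acyl-CoA inside the mitochondrion, fell by 3.11 in MI hearts and was higher by 1.21 in inhibitor and 2.14 in knockout hearts. Crat, which makes short-chain acylcarnitines, gave −2.84, 1.10 and 1.81 in the same 3 comparisons, all called.

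The acyl-CoA dehydrogenases, which take the first electrons from the chain, fell in all 6 cases after infarction, by between 1.28 (Acad9) and 3.63 (Acadm) on the log2 scale. Acadm, the medium-chain enzyme, was at 2285, 2266 and 1665 CPM in sham and 145, 115, 254 and 155 in MI hearts. Inhibitor hearts had 423, 571, 390.1 and 704 CPM and knockout hearts 918, 882, 1119 and 706. Every inhibitor heart lay above every MI heart (log2 fold change 1.64 ± 0.24, edgeR adjusted p = 2.22e-04). Every knockout heart lay above every inhibitor heart, but only narrowly (lowest 706 against highest 704 CPM). The call of Acadm between knockout and inhibitor hearts was lost with the replicate number as a block (edgeR adjusted p = 0.0621). The long-chain enzyme Acadl gave −2.81 in MI against sham, 1.60 in inhibitor and 2.16 in knockout against MI hearts, and the short-chain enzyme Acads gave −2.43, 1.10 and 1.69. Acad9, which also serves complex I assembly, and Acad11 were higher by 0.68 and 1.46 in knockout against MI hearts. Acadvl was not called in inhibitor against MI hearts (0.42), where the groups overlapped.

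**Figure D3:**
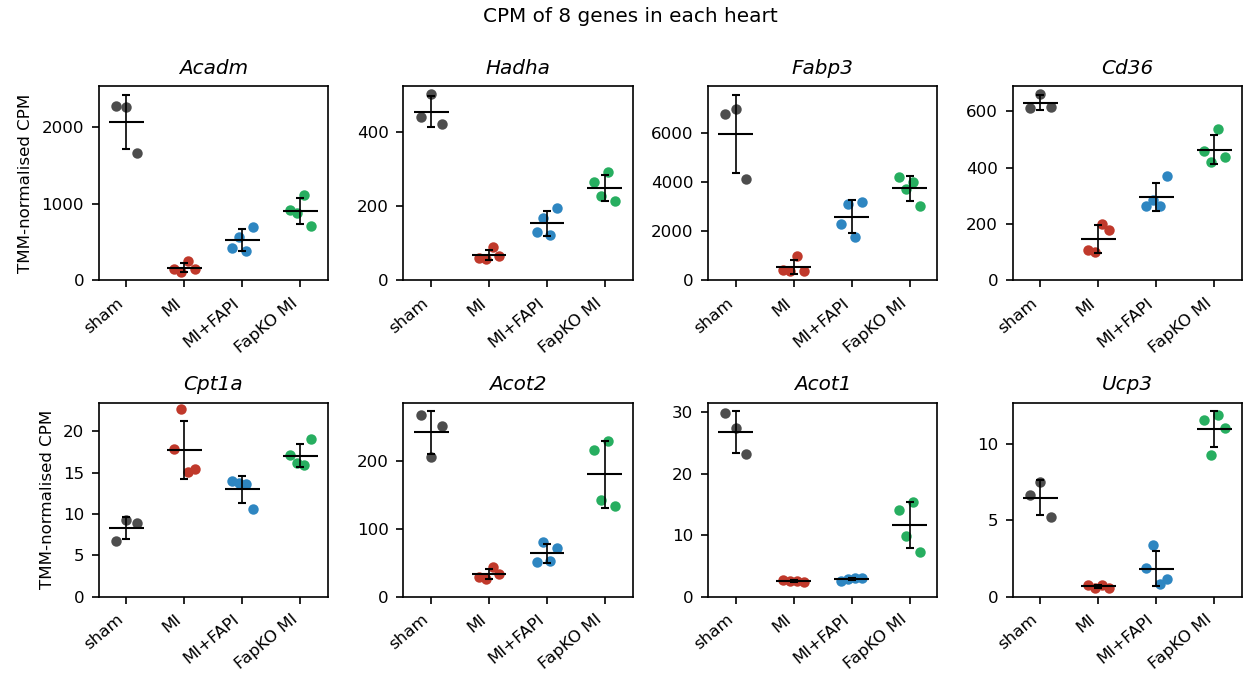
CPM of 8 genes in each heart (points, linear axes from 0), with the group mean (bar) and SD (whiskers). Acadm, Hadha and Cd36 step up from MI to inhibitor to knockout hearts without overlap, narrowly for Acadm in the last step (704 against 706 CPM). Fabp3 in knockout hearts (3025 to 4194) overlaps inhibitor hearts (1779 to 3192), and Cpt1a is lowest in sham hearts. Acot1 lies at 2.65 to 3.14 CPM in inhibitor hearts, and Ucp3 in knockout hearts (9.27 to 11.9) lies above sham.

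Hydration, oxidation and thiolysis are done in mitochondria by the trifunctional protein (Hadha and Hadhb), Echs1, Hadh and the thiolase Acaa2. Hadha was at 442, 502 and 422 CPM in sham, 60.6, 57.4, 89.2 and 66.0 in MI, 131, 167, 122 and 197 in inhibitor and 265, 227, 292 and 214 in knockout hearts. The groups did not overlap, and Hadha fell in MI hearts (log2 fold change −2.74 ± 0.18, edgeR adjusted p = 4.57e-09). Its partner Hadhb, the beta subunit, gave −3.50 in MI against sham, 1.67 in inhibitor and 2.40 in knockout against MI hearts, beside −2.74, 1.18 and 1.87 for Hadha. The pair is transcribed outward from one stretch of DNA: their RefSeq start sites lie 273 bases apart and their promoter windows (250 bases before to 50 after the start) share 228 of 300 bases. The Hadha window, shown because most of it is also upstream of Hadhb, is chr5:30154931-30155230 on the minus strand (RefSeq, GRCm38.p6), and no base is in capitals because it holds no AGGTCA, the nuclear receptor half-site:
Hadha: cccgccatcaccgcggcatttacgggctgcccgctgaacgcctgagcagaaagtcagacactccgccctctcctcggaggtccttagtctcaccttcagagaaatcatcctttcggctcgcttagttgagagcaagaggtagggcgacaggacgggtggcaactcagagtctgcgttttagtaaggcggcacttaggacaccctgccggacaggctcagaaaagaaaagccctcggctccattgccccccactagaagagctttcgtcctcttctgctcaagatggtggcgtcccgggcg
Acaa2, the last enzyme of the cycle, had the largest fall of all 33 genes (log2 fold change −3.99 ± 0.24, edgeR adjusted p = 1.68e-09), from a sham mean of 2265 CPM to an MI mean of 143 CPM. It reached 386 CPM in inhibitor and 833 CPM in knockout hearts, 17.0% and 36.8% of the sham mean. Acaa1a, a peroxisomal thiolase, had the smallest fall at −0.81. It was not called in inhibitor against MI hearts (0.15) and was higher in knockout hearts by 0.39. With total-count scaling its sign turned in all 3 comparisons (0.28, −0.27 and −0.16), and it shares 9.50% of its 75-base sequences with its near copy Acaa1b.

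The enzymes for unsaturated fatty acids fell in all 4 cases. Ech1, a dienoyl-CoA isomerase, was at 4011, 4032 and 2992 CPM in sham and 242, 207, 309 and 249 in MI hearts, the second largest fall of the list (log2 fold change −3.87 ± 0.23, edgeR adjusted p = 1.53e-09). Inhibitor hearts had 567, 813, 516 and 841 CPM and knockout hearts 1505, 1395, 1697 and 999, with no overlap between groups. Eci1, Eci2 and Decr1 gave 1.36, 0.86 and 1.05 in inhibitor against MI hearts and 2.46, 1.39 and 1.66 in knockout against MI hearts, all called.

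All 3 electron transfer genes fell. Etfa and Etfb, the subunits of electron transfer flavoprotein, and Etfdh, its dehydrogenase, fell by 3.26, 3.09 and 3.52 on the log2 scale in MI hearts. They were higher than in MI by 1.28, 1.07 and 1.63 in inhibitor hearts and by 2.05, 2.01 and 2.48 in knockout hearts. Malonyl-CoA, which inhibits carnitine palmitoyltransferase 1, is made by Acacb and broken down by Mlycd, and both genes moved the same way: −2.66 and −2.81 in MI against sham, 1.17 and 1.05 in inhibitor and 2.06 and 2.11 in knockout against MI hearts.

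Thioesterases free a fatty acid from coenzyme A, and all 3 of their genes fell after infarction. Acot1, the cytosolic form, was at 29.8, 27.4 and 23.2 CPM in sham hearts, 2.66, 2.58, 2.61 and 2.43 in MI hearts and 2.65, 2.89, 3.14 and 3.00 in inhibitor hearts. Inhibitor hearts overlapped MI hearts and Acot1 was not called between them (log2 fold change 0.18 ± 0.19, edgeR adjusted p = 0.504; −0.23 with total-count scaling). Knockout hearts had 14.1, 9.84, 15.3 and 7.33 CPM, all above every MI and inhibitor heart and below every sham heart. Acot2, the mitochondrial form, was at 267, 206 and 251 CPM in sham, 29.1, 26.8, 44.1 and 33.1 in MI, 51.4, 79.8, 53.2 and 72.1 in inhibitor and 215, 142, 229 and 133 in knockout hearts. It was higher than in MI in both groups, by 0.95 and 2.44, and knockout hearts overlapped sham hearts (log2 fold change −0.42 ± 0.22, edgeR adjusted p = 0.129). Acot13 gave −2.74, 1.67 and 2.07 in MI against sham, inhibitor against MI and knockout against MI hearts. The RefSeq start sites of Acot1 and Acot2 lie 21641 bases apart on chromosome 12. The 2 genes are near copies: 11.2% of the 75-base sequences of Acot1 transcripts and 20.5% of those of Acot2 occur in the other, so reads there could be dropped or assigned to either.

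Their promoters are shown because, of these neighbours, Acot2 was called in inhibitor against MI hearts and Acot1 was not, a difference that was not itself tested. Aligned, the windows are identical in 43.5% of columns, and neither holds AGGTCA. The Acot1 window is chr12:84009252-84009551 and the Acot2 window chr12:83987611-83987910, both on the plus strand (RefSeq, GRCm38.p6):
Acot1: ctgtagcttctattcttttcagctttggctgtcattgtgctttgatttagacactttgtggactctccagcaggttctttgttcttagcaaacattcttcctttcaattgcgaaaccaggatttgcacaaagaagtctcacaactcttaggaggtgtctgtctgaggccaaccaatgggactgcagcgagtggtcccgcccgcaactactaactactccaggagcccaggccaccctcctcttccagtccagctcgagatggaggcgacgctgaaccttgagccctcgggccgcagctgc
Acot2: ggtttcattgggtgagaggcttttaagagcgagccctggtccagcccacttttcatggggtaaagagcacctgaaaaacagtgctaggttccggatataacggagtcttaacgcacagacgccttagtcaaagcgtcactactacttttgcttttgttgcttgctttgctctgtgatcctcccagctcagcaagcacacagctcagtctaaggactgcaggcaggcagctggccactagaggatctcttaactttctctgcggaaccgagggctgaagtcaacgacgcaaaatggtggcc

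Ucp3, the uncoupling protein of muscle mitochondria and a known target of PPAR receptors, was the gene with the largest rise in knockout hearts. It was at 6.65, 7.51 and 5.24 CPM in sham, 0.774, 0.593, 0.778 and 0.578 in MI and 1.90, 3.40, 0.867 and 1.18 in inhibitor hearts. Knockout hearts had 11.5, 9.27, 11.9 and 11.0 CPM, above all 11 other hearts. It fell in MI hearts (log2 fold change −3.24 ± 0.33, edgeR adjusted p = 2.98e-07) and was higher in inhibitor (log2 fold change 1.40 ± 0.33, edgeR adjusted p = 0.0051) and knockout hearts (log2 fold change 3.99 ± 0.31, edgeR adjusted p = 2.00e-07) than in MI. Against sham, knockout hearts were higher by 0.76 (edgeR adjusted p = 0.0448), a call that was lost with RLE size factors (0.0570), with DESeq2 (0.0513) and without each of 6 single hearts (adjusted p up to 0.150). The Ucp3 promoter window holds 2 copies of AGGTCA on its own strand, which start 149 and 44 bases before the start site and are in capitals below. It is chr7:100472741-100473040 on the plus strand (RefSeq, GRCm38.p6):
Ucp3: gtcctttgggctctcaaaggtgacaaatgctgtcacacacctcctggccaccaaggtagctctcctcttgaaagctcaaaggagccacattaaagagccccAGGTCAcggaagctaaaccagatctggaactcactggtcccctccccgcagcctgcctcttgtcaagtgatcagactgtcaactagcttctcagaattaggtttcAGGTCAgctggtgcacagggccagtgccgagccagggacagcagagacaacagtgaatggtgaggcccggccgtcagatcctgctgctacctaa
RefSeq promoter windows were matched for 28 of the 34 genes, and AGGTCA or its reverse complement TGACCT was present in 7 of these genes (Cpt1a, Acadm, Acadvl, Echs1, Cd36, Acacb and Ucp3), in 22.6% of their 31 windows, beside 16.3% of all 32851 windows. AAGGTCA was in 2 (4.72% of all windows), and neither the direct repeat of AGGTCA with 1 base between (0.0396%) nor TCAAGGTCA (0.423%) was in any. Motifs were read on both strands, and those with AGGTCA inside overlap it by construction. A match here is a description of letters only.

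Whether the knockout and the inhibitor gave the same levels was tested directly, since both groups had an infarct and 4 hearts each. Of the 33 genes 25 were higher in knockout than in inhibitor hearts, none lower and 8 were not called, with a median of 0.73. Of all genes 6.12% were higher and 7.05% lower (median −0.02, and −0.16 with total-count scaling, where the higher share of called genes moved from 46.5% to 32.1% and 26 of the 33 were higher). In 29 genes the groups did not overlap, some of them not called, and this count was not made over all genes. The largest differences were Ucp3 (log2 fold change 2.60 ± 0.28, edgeR adjusted p = 2.40e-05), Acot1 (log2 fold change 1.99 ± 0.18, edgeR adjusted p = 5.60e-06) and Acot2 (log2 fold change 1.49 ± 0.20, edgeR adjusted p = 2.40e-04). Acaa2, Eci1, Acadvl, Mlycd and Ech1 followed at 1.11, 1.10, 1.07, 1.07 and 1.03. The 8 not called were Cpt1a (0.39), Acadl (0.56), Acad9 (0.10), Hadhb (0.73), Echs1 (0.49), Acaa1a (0.24), Fabp3 (0.53) and Acot13 (0.39).

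Of the 21 cardiomyocyte markers 2 were higher in knockout than in inhibitor hearts (Atp2a2 and Pln, named after their values were seen), with a median of 0.26. With the marker level as a covariate, 29 of the 33 genes were higher in knockout than in inhibitor hearts (median 0.56), where that fit called 1010 of all 17064 genes higher. Adipocyte markers were higher in knockout hearts in 7 of 10 cases, with a summed level of 2132 to 2947 CPM against 911 to 1177 CPM in inhibitor hearts and no marker at 0. Macrophage markers were lower in 7 of 12, at 3148 to 5928 against 5182 to 9088 CPM. The part of these cell types in the difference was not tested. Leaving out single hearts left 17 to 28 genes higher, with 17 without inhibitor replicate 3 and 17 without knockout replicate 3. Over all genes 525 and 494 were higher without these 2 hearts, beside 1044 with all hearts. Of the 25 calls, 16 held whichever single heart was left out. Those of Acadm, Acads, Acadvl, Cd36, Decr1, Etfa, Etfdh, Hadha and Slc22a5 were lost in at least 1 such fit.

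**Figure D4:**
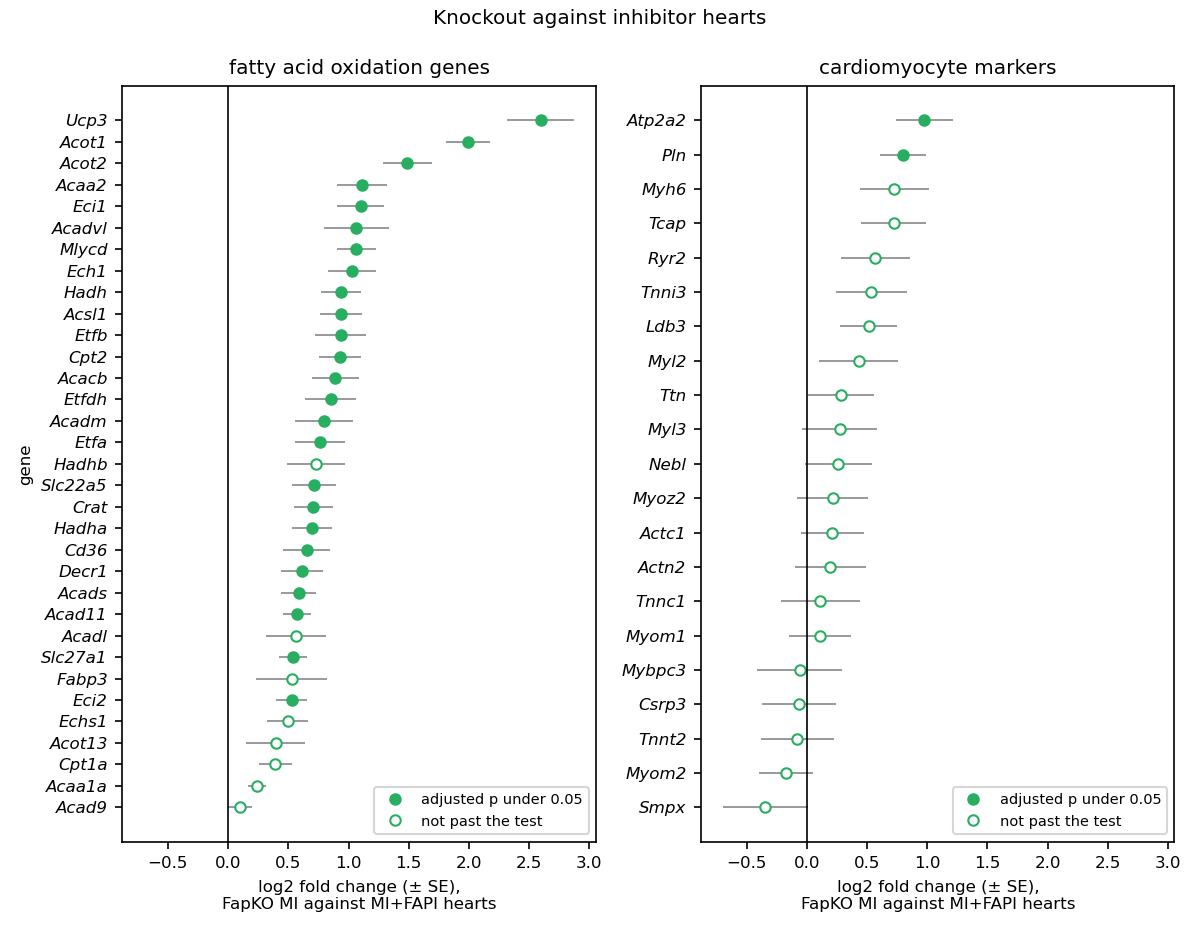
Log2 fold change of knockout against inhibitor hearts (points, SE as lines) for 33 fatty acid oxidation genes (left) and 21 cardiomyocyte markers (right), filled where the edgeR adjusted p is under 0.05. On the left 25 points are filled and all lie right of 0, up to 2.60 for Ucp3, and on the right 2 are filled.

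Inhibitor and knockout hearts were then set against sham. Inhibitor hearts were below sham in 32 of the 33 genes (26.5% of all genes were lower and 29.2% higher), with a median of −1.70 and a median level of 31.0% of the sham mean. Acot1 was the furthest below at −3.19. Knockout hearts were below sham in 24 genes and above in 2 (20.3% of all genes were lower and 19.2% higher), with a median of −0.83 and a median level of 56.2% of the sham mean. Those above were Cpt1a and Ucp3. Total-count scaling moved the median of all genes to 0.77 and 0.59 in these comparisons, the higher share of called genes from 52.4% to 86.8% and from 48.7% to 91.7%, and the medians of the 33 genes to −1.01 and −0.29. On that scale 27 of the 33 were lower and 1 higher in inhibitor hearts, and 17 lower and 3 higher in knockout hearts. The knockout call of Acacb was lost with total-count scaling and with the cardiomyocyte covariate. It was also lost without sham replicate 1 or 2 or knockout replicate 2 or 4. Cell markers also differed from sham: 11 of 21 cardiomyocyte markers were lower in inhibitor and 7 of 21 in knockout hearts, fibroblast markers were higher in 10 and 9 of 10, and macrophage markers in 11 and 9 of 12. Fibroblast sums were 8414 to 13649 CPM in inhibitor and 7925 to 9039 in knockout hearts against 3553 to 4111 in sham, and their part in the difference was not tested. In knockout against sham hearts Acadl (−0.65), Acadvl (−0.64), Acad11 (−0.20), Cd36 (−0.44), Fabp3 (−0.67), Acot2 and Acot13 (−0.67) were not called. With total-count scaling Acad11, Cd36 and Acot2 were above sham in knockout hearts (0.33, 0.09 and 0.10). All 3 electron transfer genes, all 4 genes for unsaturated fatty acids and all 6 of hydration, oxidation and thiolysis were below sham in knockout hearts, except that Acaa1a turned to 0.12 with total-count scaling.

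Of 18 transcriptional regulators of oxidation, 12 fell and 1 rose in MI against sham hearts (median −1.51; 9 and 8 with total-count scaling), where 32% of all genes fell and 37.1% rose. Ppara, the receptor that senses fatty acids, fell in MI against sham hearts (log2 fold change −3.34 ± 0.24, edgeR adjusted p = 6.94e-09), and was higher in inhibitor (1.92) and knockout hearts (2.54) than in MI. Ppargc1a, which encodes PGC-1 alpha, gave −3.42, 1.63 and 2.30, and Esrra gave −2.23, 0.97 and 1.44, all called. Between knockout and inhibitor hearts none of the 3 was called (0.62, 0.67 and 0.47). Esrrb, a related orphan receptor, had the smallest p of the 18 regulators in MI hearts at −3.49 and was higher in knockout than in inhibitor hearts by 0.77. Against MI, 9 of the 18 were higher and 1 lower in inhibitor hearts (8 and 6 with total-count scaling; 17.9% and 11.9% of all genes), and 11 were higher and 1 lower in knockout hearts (9 and 7; 25% and 26% of all genes).

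Other genes of the pathway were counted by list, and those named had the smallest p of their list in MI against sham hearts. The counts stand beside 32% of all genes that fell and 37.1% that rose in MI hearts, and 25% higher and 26% lower in knockout against MI hearts. Among further genes of the carnitine shuttle and acyl-CoA synthetases 6 of 12 tested fell and 5 rose in MI hearts (4 and 7 with total-count scaling), and 1 did not pass. Slc25a20, which exchanges carnitine for acylcarnitine across the inner membrane, fell by 2.76 and was higher than in MI by 1.18 in inhibitor and 1.83 in knockout hearts. The synthetases Acss1 and Acsl6 fell by 3.23 and 2.71. Of 16 other dehydrogenases, thioesterases and auxiliary enzymes 13 fell and none rose (9 and 5 with total-count scaling), with Gcdh, Mut and Mcee at −2.34, −1.77 and −2.63. In knockout against MI hearts 11 of these 16 were higher and none lower (9 and 2 with total-count scaling).

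Of 12 peroxisomal genes 7 fell and 2 rose after infarction (3 and 5 with total-count scaling, median −0.99 turning to 0.09), and 8 were higher and 1 lower in knockout against MI hearts (6 and 4). Phyh, which starts the alpha-oxidation of branched chains, gave −3.22 in MI against sham and 2.19 in knockout against MI hearts. Amacr and Pex11a fell by 1.78 and 1.95. Of 9 further uptake genes 6 fell and 2 rose in MI hearts (3 and 3 with total-count scaling), and Lpl, the lipase that frees fatty acids from lipoproteins, gave −2.86, 1.65 and 2.30 in MI against sham, inhibitor against MI and knockout against MI hearts. Its endothelial anchor Gpihbp1 gave −1.85, 0.94 and 1.62, and the caveolar gene Cav1 gave −1.24, 0.35 (−0.06 with total-count scaling) and 0.95. Of 14 fuel selection genes 7 were lower and 6 higher in MI hearts (3 and 7 with total-count scaling; 32% and 37.1% of all genes): Pdk2, a kinase that holds back pyruvate oxidation, fell by 3.29, Stk11 fell by 1.26 and Acaca, which makes malonyl-CoA for fatty acid synthesis, rose by 2.04.

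The fibroblast cultures were another experiment and were compared only with each other. The 34 genes took 0.158% ± 0.0157 of counts in fibroblasts alone and 0.180% ± 0.00502 in co-culture, and Acot13, Etfb and Etfa had the highest levels per kilobase in fibroblasts alone (225, 130 and 121 CPM per kb). All 10 fibroblast markers were detected in both groups, with sums of 4799 to 10837 CPM alone and 7798 to 8179 in co-culture. Of these markers 6 were called higher in co-culture and 1 lower (median 1.18), and their part in the result was not tested. Of 30 genes tested, 13 were higher in co-culture, 3 were lower and 14 were not called, with a median of 0.36 (30.3% of all 12293 genes were higher and 29.5% lower, median −0.06). Total-count scaling moved the median of all genes to −0.41 and the higher share of called genes from 50.7% to 32.7%, and gave 10 higher and 6 lower of the 30, with a median of −0.0041. Ucp3 had 0 counts in all 6 libraries, and Cpt1b, Acadvl and Acacb were too low to test.

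Slc27a1 differed most, with 20.8, 24.8 and 32.0 CPM in the 3 co-cultures and 5.01, 7.01 and 6.12 in the 3 cultures alone (log2 fold change 2.11 ± 0.20, edgeR adjusted p = 3.95e-05). Acot1 was at 21.3, 27.7 and 33.4 CPM in co-culture and 6.37, 5.33 and 8.97 alone (log2 fold change 1.99 ± 0.23, edgeR adjusted p = 1.18e-04). In neither gene did the groups overlap. The thiolases Acaa2 and Acaa1a, the isomerase Ech1, Echs1 and Mlycd were higher by 1.61, 1.56, 1.74, 1.27 and 1.59. Cpt2, Acads, Etfb, Hadh, Crat and Eci1 were higher by 1.02, 1.01, 0.86, 0.80, 0.79 and 0.71. Of these 13, the calls of Crat, Hadh and Eci1 were lost with total-count scaling.

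The 3 genes that were lower in co-culture were Cd36, Etfa and Etfdh. Cd36 was at 9.70, 5.81 and 4.71 CPM in co-culture and 14.6, 26.0 and 16.1 alone (log2 fold change −1.50 ± 0.31, edgeR adjusted p = 0.00301). Etfa and Etfdh, at −0.72 and −0.37, went the other way from Etfb, and the Etfdh call was lost with DESeq2, with the replicate number as a block (adjusted p = 0.0621) and without each of 4 single cultures. Acot2 was at 41.0, 21.5 and 19.7 CPM in co-culture and 23.3, 159.6 and 32.3 alone, where replicate 2 was far above the others, and was not called. Peroxisomal genes outside the list were higher in 10 of 13 cases and lower in 1 (8 and 1 with total-count scaling), beside 30.3% and 29.5% of all genes. In the other lists, further shuttle and synthetase genes were higher in 2 of 8 and lower in 0, and further uptake genes in 4 and 1 of 8. Other dehydrogenases, thioesterases and auxiliary enzymes were higher in 7 and lower in 3 of 15. Regulators were higher in 5 and lower in 3 of 12, and fuel selection genes in 6 and 3 of 13.

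The cultures also differed in how the cells were taken. Fibroblasts in co-culture were sorted for Pdgfra without CD45 and CD31, and fibroblasts alone were taken directly from the gel, so partner cells and sort cannot be told apart. The libraries differed too, without overlap: co-cultures held 4735337 to 6346015 counts, 15880 to 16587 detected genes and 2.07% to 2.39% mitochondrial counts, and cultures alone 12871240 to 15650221, 19632 to 21807 and 1.10% to 1.47%. Endothelial markers, those of the partner cells, were higher in co-culture in 2 of 5 tested and lower in none, with a sum of 335 to 376 CPM against 173 to 192 alone and no marker at 0. Neutrophil markers were higher in 2 of 2 tested (33.7 to 45.4 against 6.39 to 8.20 CPM, with 5 of 8 at 0 in co-culture and 2 at 0 alone). Macrophage markers were lower in co-culture in 10 of 12 cases and higher in 1 (412 to 532 against 917 to 1461 CPM summed), leukocyte markers in 4 of 4 tested and pericyte and smooth muscle markers in 4 of 4 tested (475 to 572 against 1459 to 2514 CPM). Adipocyte markers were higher in 5 of 6 tested, at 239 to 284 against 30.9 to 34.4 CPM, with Lep at 0 in both groups and Cidec at 0 in fibroblasts alone. The part of these cells and of the depth in the result was not tested.

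**Figure D5:**
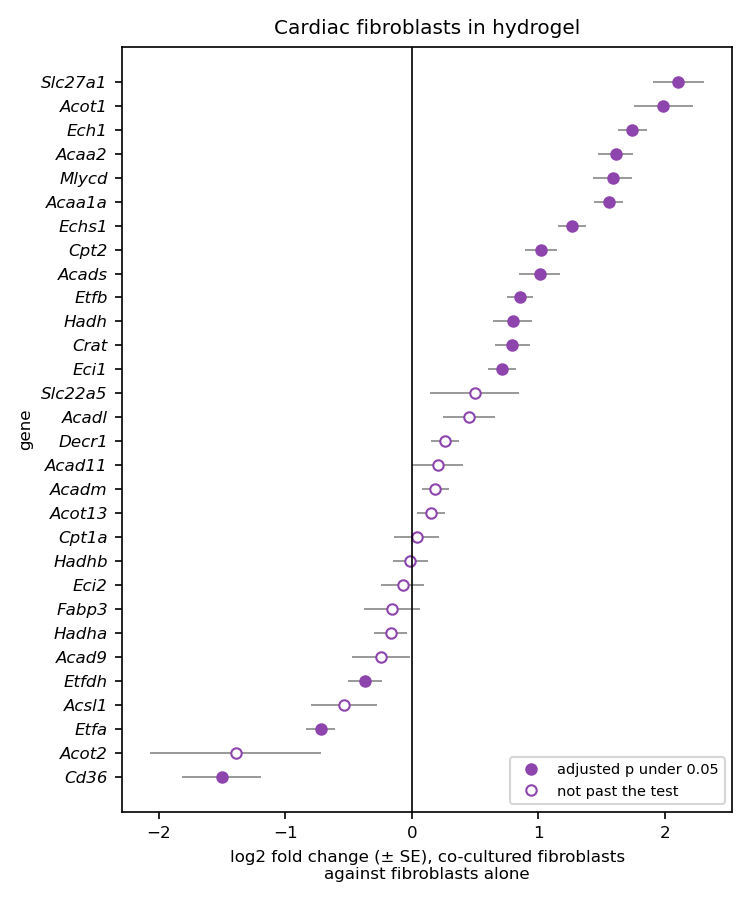
Log2 fold change of co-cultured fibroblasts against fibroblasts alone (points, SE as lines) for 30 fatty acid oxidation genes, filled where the edgeR adjusted p is under 0.05. Slc27a1 (2.11) and Acot1 (1.99) lie furthest right and Cd36 (−1.50) furthest left, and Acot2 has the widest error.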

How the data were processed

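The deposited files hold gene counts, which the authors made with STAR and HTSeq on mm10, per the submitters' processing notes, which name no versions. Libraries were built by a modified Smart-seq2 with molecular barcodes, from total RNA of hearts and polyA RNA of cultures, per the labels. All 21 libraries were used, but a series-wide table with 6 columns that match no label was not. No row named anything but a gene.

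The 34 genes, their roles and all lists were chosen with earlier results of these data known. Symbols came from GENCODE M21 (53706 of 53801 identifiers matched, ignoring versions). Counts were tested with edgeR 4.0.16 (TMM, filterByExpr, quasi-likelihood F test, Benjamini-Hochberg over all genes, threshold 0.05) in R 4.3.3, all 15 hearts in one fit and the 6 cultures apart. SE is the log2 fold change over the root of F. The fits were tested on simulated data. Alternatives were RLE size factors, total-count scaling, no filter, DESeq2 1.42.0, a replicate block, 2 groups only, the cardiomyocyte level (mean of edgeR's log2 CPM of 21 markers, centred) as a covariate, and each library left out. Of each pathway list, the 3 genes with the smallest p in MI against sham were named, and Ppara, Ppargc1a and Esrra always. A planned Cpt1b to Cpt1a ratio was not run, because Cpt1b had at most 9 counts in a heart.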

Additional observations from a re-analysis of the deposited data

Results flagged for a closer look

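Dixon's test at 95% was read on 99 sets of 4 values, each 1 gene in the MI, inhibitor or knockout hearts. The sets share the same hearts and are not independent. In 5 of them a heart lay far from the other 3, and chance gives such a gap in about 1 in 20 independent sets. For 3 genes it was MI replicate 3, the MI heart with the highest cardiomyocyte markers: Fabp3 was at 972 CPM there against 365 to 438 in the other MI hearts, Acads at 18.8 against 13.6 to 14.3, and Mlycd at 17.2 against 11.8 to 12.3. Cpt1a was at 10.6 CPM in inhibitor replicate 4, the inhibitor heart with the highest cardiomyocyte markers, against 13.7 to 14.1 in the others. Etfdh was at 296 CPM in knockout replicate 3 against 211 to 226.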

How the results depend on the processing

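Over 228 gene results, 3201 alternative values were computed, of which 2992 kept direction and call, 131 lost the call, 46 gained it and 32 turned sign. With total-count scaling the genes higher in MI against sham hearts numbered 2 (median −1.74), those lower in inhibitor against MI 3 (median 0.69) and those lower in knockout against MI 1 (median 1.52). The medians against sham were −1.01 for inhibitor and −0.29 for knockout hearts, and in cultures 6 genes were lower and the median turned to −0.0041. With the cardiomyocyte covariate 0 genes were higher in MI against sham (median −1.36), 0 higher and 0 lower in inhibitor against MI (median 0.29), 10 higher in knockout against MI (median 0.84) and 0 higher in inhibitor against sham (median −1.22), and the median of knockout against sham was −0.61. With RLE size factors and with DESeq2, 1 gene was higher in knockout against sham hearts, and with no filter the culture median was 0.25. Leaving out single libraries gave 0 to 1 genes lower in inhibitor against MI hearts (0 without MI replicate 2 or inhibitor replicate 4), 1 to 2 higher in knockout against sham, and culture medians from 0.22 to 0.51.

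Signs turned with total-count scaling for Acaa1a in MI against sham (0.28), inhibitor against MI (−0.27), knockout against MI (−0.16), inhibitor against sham (0.0098) and knockout against sham (0.12). They also turned for Slc22a5 (−0.35) and Acot1 (−0.23) in inhibitor against MI, Slc27a1 in knockout against MI (−0.20), Acad11 (0.33), Cd36 (0.091) and Acot2 (0.10) in knockout against sham, and Acad9 in knockout against inhibitor (−0.034). In cultures they turned for Cpt1a (−0.31), Acadm (−0.16), Acad11 (−0.15), Decr1 (−0.088) and Acot13 (−0.21). With the covariate Cpt1a turned in inhibitor against MI (0.094) and knockout against MI (0.60), as did Etfb (−0.12), Slc22a5 (−0.040), Acot1 (−0.047) and Acot2 (−0.0015) in inhibitor against MI. With no filter Cpt1a in cultures was −0.062. Leaving out each library in turn gave −0.045 to 0.18 for Slc22a5 in inhibitor against MI (negative without MI replicate 4) and −0.13 to 0.080 for Cpt1a in knockout against MI (positive without MI replicate 2). In cultures it gave −0.15 to 0.15 for Cpt1a, −0.11 to 0.091 for Hadhb and −0.26 to 0.042 for Eci2. Apart from these constructions, the cause was not tested.

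Replicate numbers did not pair the samples: same-numbered hearts correlated at −0.294 to 0.322 over 21 pairs, 5 of them best with their own number, and cultures at −0.183 to 0.0643 over 3. With the number as a block, 32 genes were lower and 1 higher in MI against sham hearts, 27 higher and 1 lower in inhibitor against MI, 32 higher in knockout against MI, 32 lower and 1 higher in inhibitor against sham, 25 lower and 2 higher in knockout against sham, 24 higher in knockout against inhibitor, and 14 higher and 2 lower in co-culture, where Etfdh lost its call and Acadl gained one. Low counts limit Cpt1b, Acadvl, Slc22a5, Ucp3 (15 to 25 counts in MI hearts), Acot1 (63 to 100) and Acad9, and heart groups of 3 or 4 libraries limit the precision of all values.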
